A study of Mus musculus with 3 samples.

Results

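The CXC chemokine genes Cxcl1, Cxcl2, Cxcl3, Cxcl9, Cxcl10, Cxcl11 and Cxcl16 were taken by symbol, 7 of the 55536 annotated genes in the gene tables. Each had a row in every library. The libraries were made from ribosome-depleted total RNA of the chromatin fraction of mouse macrophages, which holds transcripts still attached to their genes along with other RNA bound to chromatin. Bone marrow of C57BL/6J mice supplied the cells. The single group of 3 biological replicates was exposed to Lipid A at 100 ng/ml for 12 h, kept without it for 12 h and exposed again at 100 ng/ml for 15 min. Lipid A is the part of bacterial lipopolysaccharide that is sensed by the receptor TLR4. No untreated, singly stimulated or unwashed group was analysed here, so the levels describe restimulated cells and no change on stimulation could be measured. A single donor identifier is recorded for all libraries, with no statement of how many animals were used, so replicate spread may partly be technical.

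CXC chemokines are small secreted proteins whose first cysteine pair is separated by a single residue, and they direct leukocytes through G protein-coupled receptors. Cxcl1, Cxcl2 and Cxcl3 carry the residues Glu-Leu-Arg before that pair and recruit neutrophils through Cxcr2. Macrophages make them within minutes to hours of TLR4 signalling, mainly through NF-kB. Cxcl9, Cxcl10 and Cxcl11 lack those residues, are induced by interferons and recruit activated T cells through Cxcr3. Cxcl16 is made as a transmembrane protein that binds Cxcr6, takes up oxidised lipoprotein and is released by the protease Adam10.

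The coding sequence around the cysteine pair shows this division. Each stretch below covers 36 coding bases of the lowest-numbered coding transcript of that gene (GENCODE M21, mm10), 5′ to 3′ on the coding strand. Capitals mark the codons of the cysteine, the middle residue and the next cysteine, preceded in Cxcl1, Cxcl2 and Cxcl3 by the Glu-Leu-Arg codons.
Cxcl1, chr5:90891478-90891513 (+ strand): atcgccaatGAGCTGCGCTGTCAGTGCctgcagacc
Cxcl2, chr5:90904124-90904159 (+ strand): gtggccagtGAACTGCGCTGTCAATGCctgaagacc
Cxcl3, chr5:90786350-90786385 (+ strand): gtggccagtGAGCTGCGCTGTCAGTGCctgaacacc
Cxcl9, chr5:92326833-92326868 (− strand): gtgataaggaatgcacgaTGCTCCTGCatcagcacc
Cxcl10, chr5:92348172-92348207 (− strand): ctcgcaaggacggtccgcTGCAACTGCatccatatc
Cxcl11, chr5:92361291-92361326 (− strand): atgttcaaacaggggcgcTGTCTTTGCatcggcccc
Cxcl16, chr11:70459118-70459153 (− strand): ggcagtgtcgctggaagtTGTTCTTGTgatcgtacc
The Glu-Leu-Arg codons were present in Cxcl1, Cxcl2 and Cxcl3 and absent from the other 4 genes. Over the whole coding sequence Cxcl2 and Cxcl3 were the closest of the 21 pairs, with 89.7% identical bases in a global alignment. Cxcl1 matched Cxcl2 at 75.7% and Cxcl3 at 72.7%, whereas Cxcl10 matched Cxcl11 at 53.7% and Cxcl9 at 48.5%. The longest run of identical bases shared by the transcripts was 110 for Cxcl2 and Cxcl3 and 23 or fewer for every other pair. Reads that fall wholly in that 110-base run cannot be assigned to Cxcl2 or Cxcl3 from their letters, so the split between these genes is uncertain there.

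Most of the genes lie in a pair of clusters on chromosome 5, and Cxcl16 lies apart on chromosome 11. Cxcl3 (ENSMUSG00000029379.10, chr5:90786103-90789600), Cxcl1 (ENSMUSG00000029380.11, chr5:90891241-90893115) and Cxcl2 (ENSMUSG00000058427.10, chr5:90903871-90905938) are on the + strand of mm10. Cxcl9 (ENSMUSG00000029417.9, chr5:92321347-92328079), Cxcl10 (ENSMUSG00000034855.13, chr5:92346638-92348889) and Cxcl11 (ENSMUSG00000060183.6, chr5:92359544-92365485) are on the − strand. Cxcl16 (ENSMUSG00000018920.11, chr11:70453983-70459984) is also on the − strand. GENCODE annotates Cxcl11 as a polymorphic pseudogene and the other 6 as protein coding. Whether Cxcl11 RNA of these C57BL/6J cells encodes a working chemokine was not tested.

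The sequence before the start of 5 of the genes is shown because genes of one cluster differed widely in level. Cxcl11 and Cxcl16 are left out because the promoter sequences used held no entry for them. Sequences are from RefSeq (GRCm38.p6), 5′ to 3′ on the strand of the gene, and cover up to 250 bases that end before both the RefSeq and the GENCODE start. Capitals mark matches, on either strand, to GGGANNTTC (a short form of the NF-kB site), GAAANNGAA (the interferon-stimulated response element), TGANTCA (the AP-1 site) and TATAAA (the TATA box).
Cxcl1 promoter, chr5:90890995-90891240 (+ strand): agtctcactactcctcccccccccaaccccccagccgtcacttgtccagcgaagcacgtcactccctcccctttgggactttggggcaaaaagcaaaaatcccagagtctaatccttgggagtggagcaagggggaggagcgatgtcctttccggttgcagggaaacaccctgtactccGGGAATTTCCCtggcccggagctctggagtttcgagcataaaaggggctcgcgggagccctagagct
Cxcl2 promoter, chr5:90903649-90903870 (+ strand): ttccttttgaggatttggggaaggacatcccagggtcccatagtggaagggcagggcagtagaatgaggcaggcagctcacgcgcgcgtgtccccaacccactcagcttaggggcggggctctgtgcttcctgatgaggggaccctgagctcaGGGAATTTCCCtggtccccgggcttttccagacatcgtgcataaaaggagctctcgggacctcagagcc
Cxcl3 promoter, chr5:90785851-90786100 (+ strand): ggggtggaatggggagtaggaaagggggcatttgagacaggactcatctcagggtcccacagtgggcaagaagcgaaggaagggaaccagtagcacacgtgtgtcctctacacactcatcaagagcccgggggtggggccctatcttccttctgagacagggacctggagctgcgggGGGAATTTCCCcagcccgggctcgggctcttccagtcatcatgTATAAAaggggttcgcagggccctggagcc
Cxcl9 promoter, chr5:92328080-92328329 (− strand): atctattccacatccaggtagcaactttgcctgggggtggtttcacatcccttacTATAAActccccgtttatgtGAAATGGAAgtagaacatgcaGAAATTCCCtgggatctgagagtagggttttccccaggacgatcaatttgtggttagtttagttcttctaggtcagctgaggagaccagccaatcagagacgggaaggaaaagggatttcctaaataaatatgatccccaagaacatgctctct
Cxcl10 promoter, chr5:92348890-92349139 (− strand): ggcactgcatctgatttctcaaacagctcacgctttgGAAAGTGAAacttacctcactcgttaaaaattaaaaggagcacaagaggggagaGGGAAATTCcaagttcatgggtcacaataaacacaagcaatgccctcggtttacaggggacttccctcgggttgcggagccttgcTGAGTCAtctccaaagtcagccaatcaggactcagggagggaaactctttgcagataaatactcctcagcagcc
GGGANNTTC was found in all 5 windows shown, against 3.23% of 32851 mouse promoters searched over the 250 bases before their start. In Cxcl1, Cxcl2 and Cxcl3 it read as the same 11 bases, GGGAATTTCCC, in which matches on the opposite strands overlap, beginning at −71, −97 and −73 from the RefSeq start. Cxcl9 held it on the opposite strand from −154, and Cxcl10 held it from −159. GAAANNGAA was found in Cxcl9 from −175 and in Cxcl10 from −213 and not in the windows of Cxcl1, Cxcl2 and Cxcl3, against 7.13% of all promoters. TGANTCA was found in Cxcl10 from −74 (6.75% of all promoters), and TATAAA in Cxcl3 from −30 and in Cxcl9 from −195 (12.4% of all promoters). A match describes letters at any position in the window and is not evidence that a factor was bound or that TATAAA acts as a TATA box. Near matches, such as CATAAA in Cxcl1 and Cxcl2, were not marked.

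Cxcl2 led the neutrophil-attracting group, Cxcl1 was about an order lower and Cxcl3 was close to 0. Cxcl2 had 26.27, 9.18 and 27.30 TPM (a length-scaled share of the transcripts in a library) in replicates 1, 2 and 3. Replicates 1 and 3 were nearly level and replicate 2 was low. The mean was 20.9 ± 10.2 TPM (SD, n = 3), from 450, 196 and 793 expected counts, and it ranked 4022 among all genes. Cxcl1 had 2.06, 0.67 and 4.40 TPM, from 40, 17 and 130 counts, with a mean of 2.38 ± 1.89 TPM. Its values were spread over 6.57-fold, with replicate 3 high and replicate 2 low. The 95% exact Poisson intervals of these counts, not scaled for depth, were 28.6 to 54.5, 9.90 to 27.2 and 109 to 154. Cxcl3 had 1, 1 and 0 counts, or 0.10, 0.08 and 0.00 TPM. The limit that a count of 0 allows in replicate 3, taken as 3 counts, is 0.197 TPM at the effective length of Cxcl3-201. The promoters printed above for Cxcl2 and Cxcl3 share the same 11-base NF-kB match, and its part in their levels was not tested.

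A second quantification, which the authors made directly from the reads without the alignments, gave the same order for these 3 genes. Summed over transcripts, it gave Cxcl2 19.3, 6.33 and 18.3 TPM and Cxcl1 1.86, 0.83 and 3.55 TPM. Cxcl3 had 0.303, 0.321 and 0.367 TPM there, from 19.2, 27.5 and 38.9 estimated counts, all of them on Cxcl3-202, a 3498-base transcript with retained introns. The alignment-based counts of Cxcl3 were all on Cxcl3-201, the spliced protein-coding transcript. The libraries are the same, so these differences lie in the quantification.

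Cxcl10 was the highest of the 7 genes, while its interferon-induced neighbours Cxcl9 and Cxcl11 were far lower. Cxcl10 had 4649.87, 1300.91 and 2011.53 expected counts and a mean of 141 ± 111 TPM, rank 462 among all genes. Replicate 1 stood apart, at 268.29 TPM against 70.71 and 83.56 TPM, and without it the mean was 77.1 TPM. The read-based values were 188, 44.2 and 56.2 TPM, with replicate 1 again apart. Cxcl11 had 5.97, 0.29 and 0.95 TPM, from 110, 8 and 28 counts. Replicate 1 was again the highest, and the Poisson intervals of the counts were 90.4 to 133, 3.45 to 15.8 and 18.6 to 40.5. The mean of Cxcl11 was 2.40 ± 3.11 TPM and fell to 0.620 TPM without replicate 1.

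Cxcl9 had 3, 2 and 3 expected counts, or 0.46, 0.05 and 0.06 TPM. The higher TPM of replicate 1 came from a fraction of a count assigned to Cxcl9-202, a 370-base retained-intron transcript that held 0.39 of the 0.46 TPM. The read-based table placed Cxcl9 at 1.36, 1.15 and 1.28 TPM, from 70.5, 80.5 and 111.0 estimated counts, all on the protein-coding transcript Cxcl9-201. Its libraries were within 1.18-fold of each other there. Cxcl9 was the 1 gene of 6 with at least 1 TPM in either table whose read-based value was at least 2-fold the alignment-based value in every library, which 40.9% of 23471 such genes were. The read-based table gave Cxcl11 9.49, 2.43 and 3.85 TPM, a mean of 5.26 ± 3.73 TPM against 2.40 TPM from alignments.

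Cxcl16, the transmembrane chemokine gene, was the steadiest of the 7 in the alignment-based table. It had 30.24, 22.52 and 27.21 TPM, from 772.7, 696.74 and 1081.2 counts. The mean was 26.7 ± 3.89 TPM, rank 3245 among all genes, and the libraries lay within 1.34-fold of each other. The coefficient of variation was 14.6% for Cxcl16, against 48.7% for Cxcl2, 78.5% for Cxcl10, 79.3% for Cxcl1 and 129% for Cxcl11. The read-based mean was 32.0 ± 4.08 TPM.

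**Figure D1:**
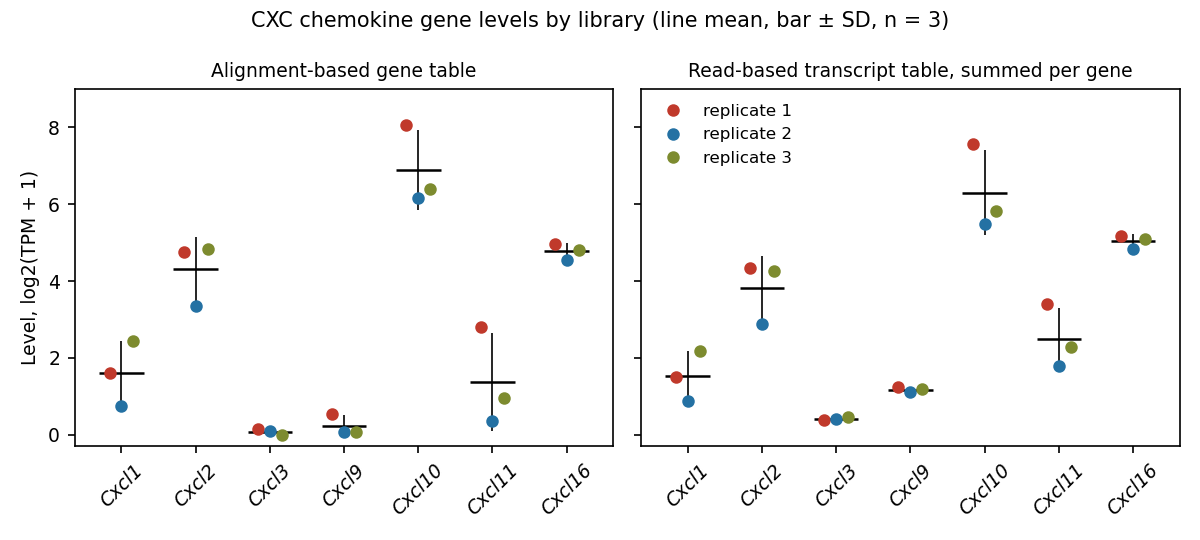
Levels of the 7 genes on the log2(TPM + 1) scale, from the alignment-based gene table on the left and the read-based transcript table on the right, with 1 point per library, a line for the mean and a bar of ± 1 SD (n = 3). Cxcl10 is highest and Cxcl3 lowest in both, and Cxcl9 lies higher in the read-based table.

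The order of mean levels was Cxcl10, Cxcl16, Cxcl2, Cxcl11, Cxcl1, Cxcl9 and Cxcl3 in both tables. Differences between neighbours in this order were taken within each library on the log2(TPM + 1) scale and tested with an exact 2-sided sign-flip permutation test, which cannot give p below 0.25 with 3 libraries. None of the 6 pairs could therefore pass. The order was also taken from these same libraries, so differences in its direction are no independent support for it. Cxcl10 exceeded Cxcl16 in 3 of 3 libraries, by 3.11, 1.61 and 1.58 (exact p = 0.25, adjusted p = 0.5). Cxcl16 and Cxcl2 differed by 0.47 ± 0.65, and in replicate 3 they were level at 27.21 and 27.30 TPM. Cxcl2 exceeded Cxcl11 by 2.94 ± 0.95, in 3 of 3 libraries. Cxcl11 was above Cxcl1 in replicate 1 and below it in replicates 2 and 3, a mean log2 difference of −0.22 ± 1.34, although its mean TPM was the higher. Cxcl1 exceeded Cxcl9 by 1.36 ± 0.88, in 3 of 3 libraries, and Cxcl9 and Cxcl3 differed by 0.15 ± 0.23. In the read-based table Cxcl16 exceeded Cxcl2 by 1.21 ± 0.65 and Cxcl11 exceeded Cxcl1 by 0.96 ± 0.89, each in 3 of 3 libraries, and Cxcl1 minus Cxcl9 was 0.35 ± 0.62.

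Ratios of genes within a library do not depend on how that library was scaled. Cxcl10 was 8.87-fold Cxcl16 in replicate 1 and 3.14-fold and 3.07-fold in replicates 2 and 3. Against Cxcl2, Cxcl10 was 10.2-fold, 7.70-fold and 3.06-fold. Cxcl2 was 12.8-fold and 13.7-fold Cxcl1 in replicates 1 and 2 and 6.20-fold in replicate 3. The cluster neighbours Cxcl10 and Cxcl11 had a TPM ratio of 44.9, 244 and 88.0 in the alignment-based table and of 19.8, 18.2 and 14.6 in the read-based table. The ratio of this pair varied 5.43-fold between libraries in the first and 1.36-fold in the second.

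Of 36 other genes that start within 100 kb of a chemokine gene start, 12 had a mean of at least 1 TPM. Among them Art3, which overlaps Cxcl10, had 14.81, 3.62 and 4.29 TPM and was highest in replicate 1 as Cxcl10 was. Further out, Sdad1 had 12.64, 15.26 and 12.90 TPM and Nup54, a nuclear pore gene, had 11.98, 14.85 and 14.73 TPM, with neither highest in replicate 1. Beside Cxcl3, the platelet factor gene Pf4 had 1.02, 4.50 and 4.12 TPM, and Cxcl15 was listed at 0 throughout, although the read-based table gave it 3.01 ± 0.655 TPM. Beside Cxcl16, the beta-arrestin gene Arrb2 had 335 ± 11.9 TPM, the proteasome subunit gene Psmb6 had 41.27, 32.38 and 46.20 TPM and the phospholipase gene Pld2 had 50.0 ± 11.8 TPM.

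The replicates set the genes apart from each other. Of 15873 genes with a mean expected count of at least 10, 5 of the 7 were included, and Cxcl3 and Cxcl9 were not. Cxcl10 and Cxcl11, 2 of the 5, were at least 2-fold higher in replicate 1 than in each other library, as were 1.29% of the 15873 genes. Cxcl10 was 3.48-fold and Cxcl11 9.63-fold the mean of replicates 2 and 3, against a median of 1.01 over all genes. Of 15833 genes above 0 in every library, 30 had a higher ratio than Cxcl10 and 3 a higher one than Cxcl11. In the read-based table these ratios were 3.75 for Cxcl10 and 3.02 for Cxcl11. Cxcl10, Cxcl11 and Cxcl16 were highest in replicate 1, 3 of 5, as were 38.9% of all genes, but Cxcl16 exceeded replicates 2 and 3 by only 1.34-fold and 1.11-fold.

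Cxcl1 and Cxcl2 followed another pattern, with replicate 2 low. Cxcl1, Cxcl2 and Cxcl11, 3 of 5, were at least 2-fold higher in replicate 3 than in replicate 2, as were 2.60% of all genes. The ratio was 6.57 for Cxcl1, with 8 genes above it, 2.97 for Cxcl2, with 88 above it, and 3.28 for Cxcl11. The read-based ratios were 4.28, 2.89 and 1.59, so Cxcl11 was not past 2-fold there. Cxcl10 and Cxcl16 had ratios of 1.18 and 1.21. All 5 genes were lowest in replicate 2, as were 39.0% of all genes. Replicate 2 also began from the least RNA, with 1000, 250 and 500 ng in replicates 1, 2 and 3, and input and replicate cannot be told apart here. With 1 library on each side there is no replicate check on these differences. In bulk RNA, fewer cells that transcribe a gene and less of its RNA per cell cannot be told apart either.

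**Figure D2:**
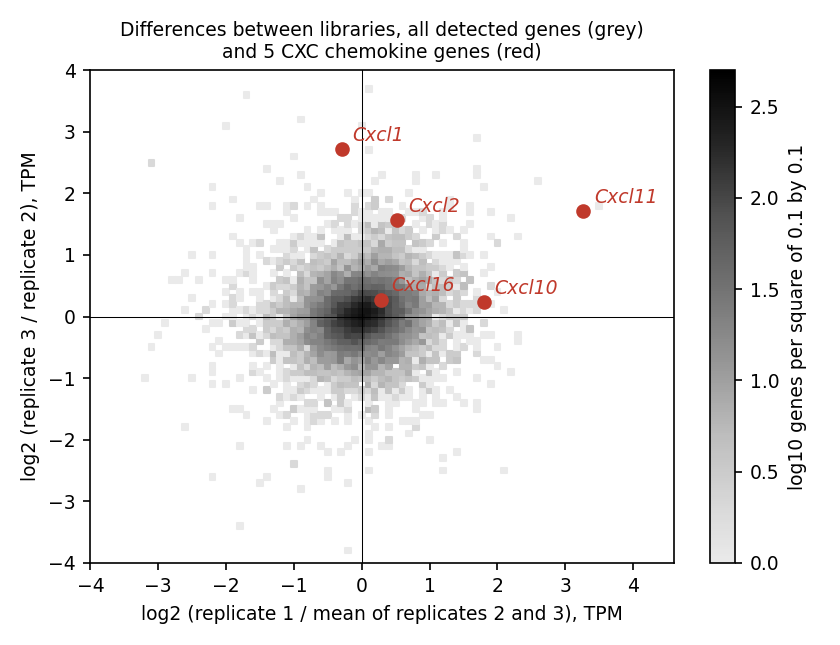
Differences between libraries for every gene with a mean expected count of at least 10 and more than 0 TPM in each library, as the log2 ratio of replicate 1 to the mean of replicates 2 and 3 (x axis) and of replicate 3 to replicate 2 (y axis). Grey squares are shaded by the log10 number of genes, and red points are the 5 chemokine genes, with Cxcl10 and Cxcl11 to the right, Cxcl1 and Cxcl2 upward and Cxcl16 near the centre.

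Much of the signal of Cxcl1, Cxcl2 and Cxcl10 was assigned to transcripts annotated as retained intron. For Cxcl1 the retained-intron transcript Cxcl1-202 held 88.3, 100 and 85.2% of the TPM of the gene, a mean of 91.2% ± 7.79 (SD, n = 3). For Cxcl2 the retained-intron share was 76.2, 68.4 and 65.9%, or 70.2% ± 5.34, most of it in Cxcl2-203 with 15.34, 5.34 and 16.02 TPM. The spliced Cxcl2-201 had 4.91, 2.66 and 6.04 TPM. For Cxcl10 the share was 63.8, 70.2 and 62.2%, or 65.4% ± 4.24. The retained-intron transcript Cxcl10-204 had 139.10, 31.82 and 36.51 TPM and the spliced Cxcl10-201 had 94.46, 19.92 and 30.16 TPM, so both were highest in replicate 1.

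Cxcl16 had a lower retained-intron share, at 32.8, 37.2 and 39.0%, or 36.3% ± 3.22. Its protein-coding transcript Cxcl16-201 held 58.0% ± 1.71, and Cxcl16-202, annotated as a target of nonsense-mediated decay, held 5.64% ± 2.11. The 3 libraries of Cxcl16 lay below each library of Cxcl1, Cxcl2 and Cxcl10. The annotated transcripts differ in extent, however. Cxcl1-202, Cxcl2-203 and Cxcl10-204, at 1871, 2066 and 2230 bases, are nearly as long as their genes. Cxcl16-203, at 1662 bases, is much shorter than its gene. How far this difference sets the shares was not tested. The median share over 6584 genes that average at least 1 TPM and have transcripts of both the protein-coding and the retained-intron type was 46.8% (quartiles 30.3 and 62.2%). Of these genes 98.2% had a lower share than Cxcl1, 84.9% than Cxcl2, 79.2% than Cxcl10 and 33.7% than Cxcl16. In the read-based table the shares were 87.5% ± 10.9 for Cxcl1, 74.2% ± 6.86 for Cxcl2, 70.0% ± 3.91 for Cxcl10 and 53.8% ± 4.54 for Cxcl16, against a median of 45.4% over 7515 genes. The share of Cxcl16 thus lay below the median of all genes in the first table and above it in the second.

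Cxcl11 has no annotated retained-intron transcript. Its transcript Cxcl11-201, annotated as protein coding, held 90.6% ± 6.81 of the TPM, and Cxcl11-202, the polymorphic pseudogene transcript, held 9.44% ± 6.81. Shares depend on how the authors' tools divided reads that several transcripts have in common.

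**Figure D3:**
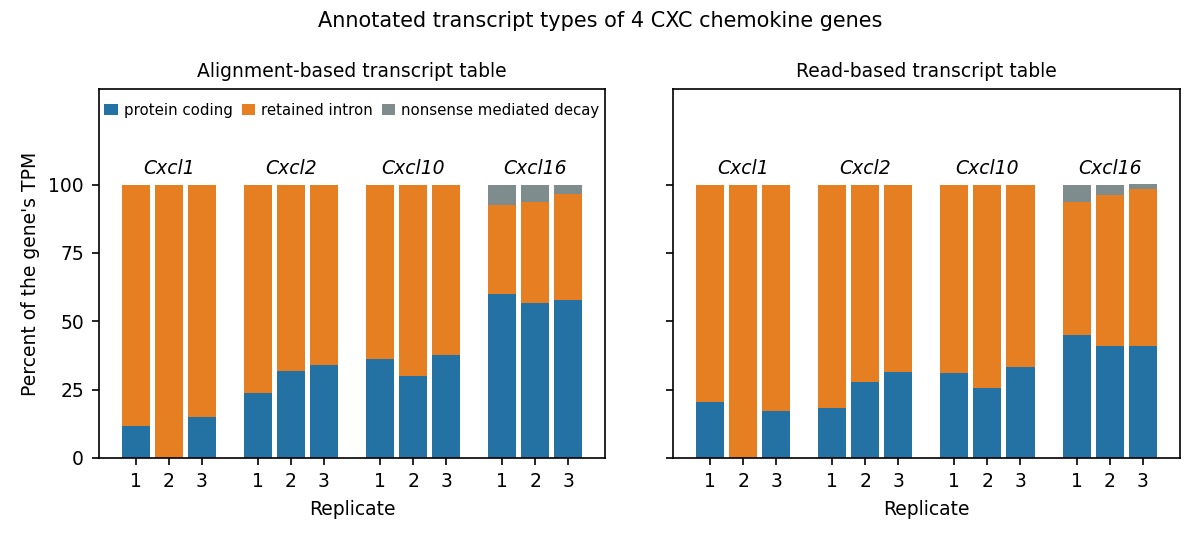
Percent of the TPM of each gene (y axis, from 0) in transcripts annotated as protein coding (blue), retained intron (orange) and nonsense-mediated decay (grey), with 1 bar per replicate, from the alignment-based (left) and read-based (right) transcript tables. Retained-intron transcripts hold most of Cxcl1, Cxcl2 and Cxcl10 in each library, and for Cxcl16 they hold 36.3% on the left and 53.8% on the right.

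The use of strand in counting is not stated, so genes that overlap on opposite strands may share reads. Cxcl10 shares 133 of its 2252 exonic bases with Art3 on the + strand, and these lie in Art3-214 (chr5:92331841-92346770). Art3, an ADP-ribosyltransferase family gene, had most of its TPM in that transcript, which held 14.46, 3.14 and 3.80 TPM. Cxcl16 shares 552 of 3021 exonic bases with Zmynd15, which had 10.79, 8.20 and 11.13 TPM. Cxcl11 shares 1582 of 3794 exonic bases with the pseudogene Gm2673, listed at 0 TPM in every library and at 0, 1.90 and 1.22 TPM in the read-based table.

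Among 9955 genes with a mean count of at least 100, those with the most similar profile over the 3 libraries were named for each chemokine gene that met the same minimum. Similarity was the Euclidean distance between log2(TPM + 1) values after each gene's mean was subtracted. The closest to Cxcl10 was Art3, at a distance of 0.097, followed by Ifit1bl1 of the interferon-induced Ifit family, with 54.6, 15.6 and 18.4 TPM (0.132), and mt-Rnr2, the mitochondrial large ribosomal RNA, with 24.1, 6.57 and 7.84 TPM (0.139). The closest to Cxcl2 were Gm49339 (0.208), Csf1, the macrophage growth factor gene, with 31.8, 11.4 and 27.6 TPM (0.214), and the chemokine-binding receptor gene Ccrl2 with 16.97, 7.27 and 20.49 TPM (0.218). Cxcl16 lay closest to Kpna4, Med13l and Pcbp2, at 0.002, 0.004 and 0.005. Each profile has only 3 points, 1 per library.

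The other chemokine ligand genes examined were low. Of 10 further CXC, CX3C and XC ligand genes, only Pf4 had a mean of at least 1 TPM, at 3.21 ± 1.91 TPM. Cxcl17 followed at 0.517 ± 0.118 and Cx3cl1 at 0.107 ± 0.159 TPM, and Cxcl13, Cxcl15 and Xcl1 were listed at 0. By the read-based quantification, 4 of the 10 had at least 1 TPM, among them Cxcl5, another ligand of Cxcr2, at 2.31 ± 0.162 TPM.

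Of the 8 receptor genes, 2 had at least 1 TPM. Cxcr6, the receptor of Cxcl16, had 10.80, 10.24 and 9.34 TPM, or 10.1 ± 0.737, and Cxcr4 had 1.61, 1.07 and 3.43 TPM. Cxcr3, the receptor of Cxcl9, Cxcl10 and Cxcl11, had 0.360 ± 0.144 TPM, and the scavenging receptor gene Ackr1 was at 0. Cxcr2, outside the rule for named genes and chosen after its value was seen, had 0.0100 ± 0.0173 TPM and 4.61 ± 0.630 TPM in the read-based table. Among 8 genes that shed or process these ligands, 4 had at least 1 TPM, led by the sheddase genes Adam17 at 54.8 ± 12.4 TPM and Adam10 at 14.3 ± 1.57 TPM. Padi4, a citrullinating enzyme gene, had 4.02 ± 0.832 TPM, and the gelatinase gene Mmp9 was lowest at 0.0233 ± 0.0208 TPM.

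All 24 regulators of CXC chemokine expression examined, from receptors and adaptors to transcription factors, had at least 1 TPM, with a median of 39.9 TPM. For scale, Cxcl1 at 2.38 TPM ranked 12443 among the 55536 genes. The interferon signalling genes Stat2 and Irf7 were among the highest, at 698 ± 110 and 367 ± 84.4 TPM, and the TLR adaptor gene Ticam1 was lowest at 7.99 ± 0.931 TPM. Of the 24, 19 were highest in replicate 1 and 16 were lowest in replicate 2, against 38.9% and 39.0% of all genes. None of the 24 was at least 2-fold higher in replicate 1 than in each other library, which is near the share of 1.29% over all genes.

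The labelled cell type was checked against its markers. All 8 macrophage markers had at least 1 TPM, with summed levels of 972, 978 and 869 TPM and Adgre1, which encodes F4/80, at 330 ± 55.6 TPM. None of 9 neutrophil markers had a mean of 1 TPM (sums 1.26, 1.25 and 1.64 TPM, with Elane and Ltf at 0), and none of 8 lymphocyte markers did (sums 0.360, 0.310 and 0.230 TPM, with Cd3e, Nkg7 and Klrb1c at 0). Of 6 dendritic markers only Zbtb46 did, at 1.58 TPM (sums 3.07, 2.85 and 2.62 TPM). Of 8 stromal and endothelial markers, 2 did, and their sum was 12.9, 6.72 and 6.79 TPM, with Pdgfra at 0. Kdr, an endothelial receptor gene in that list, had 11.04, 3.19 and 4.56 TPM and was highest in replicate 1 along with Cxcl10. Of the 5 genes in that list with a mean count of at least 10, 1 was highest in replicate 1, as were 38.9% of all genes. The endothelial gene Pecam1 had 1.22, 1.53 and 1.17 TPM, and the collagen genes Col1a1, Col1a2 and Col3a1 were lowest in replicate 1. The part of Kdr in the Cxcl10 values was not tested. The read-based quantification gave higher values for these other cell types. There 3 lymphocyte markers had at least 1 TPM, with sums of 15.2, 19.4 and 19.2 TPM, of which the T cell receptor complex gene Cd3d held 12.4, 16.9 and 16.2 TPM. By comparison Cxcl2 averaged 14.6 TPM in that table. From alignments Cd3d had 0.00, 0.05 and 0.00 TPM. In the read-based table Cd3g and Cd3e, of the same complex, were lower, at 1.01, 1.19 and 1.38 TPM and at 0.211, 0.0971 and 0.0695 TPM. Of the neutrophil markers 2 passed, with sums of 4.63, 4.82 and 4.28 TPM, of the dendritic markers 3 (7.70, 8.57 and 7.95 TPM) and of the stromal and endothelial markers 3 (23.4, 19.8 and 19.7 TPM). Their part in the chemokine values was not tested.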

How the data were processed

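Chromatin-associated total RNA was measured in 3 libraries of 1 group. A gene table and a transcript table per library, called alignment-based here, hold expected counts and TPM, which the authors derived from aligned reads, per the README files and column headers. Another transcript table, called read-based, holds estimated counts and TPM that the authors deposited as derived directly from the reads. Build and annotation were mm10 and GENCODE M21, per the README files. The tools, their versions and the use of strand are not given in the sources used here.

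Expected counts totalled 14609979, 17423948 and 24162551 in replicates 1, 2 and 3, and read-based counts 23135627, 30418666 and 40940944. Rows of no gene held 1.24, 0.482 and 0.228% of the expected counts and were left out of gene counts. TPM scales each library to one total, so abundant RNAs and very short ones depress the values of the rest. Levels are means ± SD over libraries, and log2(TPM + 1) understates differences between low genes. A count of 0 is read as at most 3 counts. Counts have exact 2-sided Poisson 95% intervals, whose upper limit for a count of 0 is 3.69. Without molecular identifiers these cover counting error only.

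With 1 group no count test between conditions applied, so shares over all genes with a mean count of at least 10 stand beside the genes' own. Counts of genes with at least 1 TPM have no such share beside them and only describe the genes listed. Expected counts were rounded for scaling by TMM (edgeR 4.0.16) and DESeq2 1.42.0 size factors under R 4.3.3. All other steps ran in Python 3.11.15, with scipy 1.17.1, numpy 2.4.6, matplotlib 3.10.9 and pandas 2.3.3. The fold rule was tested on simulated data. Other alternatives were the read-based table, summed transcripts, TPM rescaled without features under 200 nt, rows of no gene and the rRNA-like genes Gm26917, Gm42418 and CT010467.1, other thresholds, and leaving out each replicate.

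The chemokine genes and all lists were chosen with earlier results of these data known. Named genes were the 7 chemokine genes, the 3 closest profiles of each with a mean count of at least 100, and the 3 highest and 1 lowest of each list, with neighbours within 100 kb. Other genes are named as examples. Not every gene that the rule takes is reported here.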

Additional observations from a re-analysis of the deposited data

How the results depend on the processing

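Of 42 levels recomputed for the 7 genes (6 alternatives each), 34 stayed within 1 SD of the reported mean and 8 did not. Leaving out 1 of 3 libraries cannot shift a mean by 1 SD, and summed transcripts repeat the gene values. Those levels could therefore not move. The read-based table kept 4 of 7 levels within 1 SD, and rescaling TPM without short, unannotated and rRNA-like features kept 2 of 7. The rescaling moved the other 5, raising for example Cxcl16 from 26.7 to 50.3 and Cxcl10 from 141 to 270 TPM. The read-based table moved Cxcl3 to 0.330, Cxcl9 to 1.27 and Cxcl16 to 32.0 TPM. The count of genes with a mean of at least 1 TPM, 5 of 7, was 4 without replicate 1, 6 in the read-based table and 5 under the other alternatives. The 2 genes at least 2-fold higher in replicate 1, Cxcl10 and Cxcl11, were called under every scaling tried. A mean count minimum of 100 left 1, Cxcl10, since Cxcl11 has fewer counts, and a minimum of 1 added Cxcl9 to make 3. Leaving out a replicate gave a count of 2 to 4: without replicate 3, Cxcl1 and Cxcl2 joined, and without replicate 1 there is no value. Cxcl10 in replicate 1 was 3.48-fold the mean of the others, and 3.75-fold in the read-based table, 3.93-fold on TMM-scaled counts, 3.91-fold with DESeq2 size factors and 3.69-fold in rescaled TPM; the cause was not tested. No paired analysis was possible because the series has 1 group. Few expected counts limit the alignment-based levels of Cxcl3 and Cxcl9, with at most 3 per library, and of Cxcl11 in replicate 2, with 8.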
